A study of Panax ginseng with 12 samples.

Results

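Embryogenic calli of Panax ginseng, cultured plant cell masses that can form somatic embryos, were compared after 2 days at 5 °C (cold) and after 2 days at 20 °C (control). The comparison rests on 4 RNA libraries, 2 per temperature, of the 12 in the series. The other 8 libraries hold calli of the same culture type at the same 2 temperatures on days 4 and 6, again with 2 libraries each. The labels name no genotype, cultivar or added agent for any group. The day 2 libraries carry the replicate numbers 1 and 3, and nothing says that they came from separate cultures, so p-values may measure only technical spread.

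In plant cells, cooling is followed within minutes by a rise of calcium in the cytosol. Calcium-binding proteins and mitogen-activated protein kinases pass the signal on, and transcription factors of the DREB1 (CBF) family, together with zinc finger, WRKY and ethylene-response factors, are known in Arabidopsis as the first wave of genes switched on. Later steps include sugars and other compatible solutes, changes of membrane lipids, protective proteins such as dehydrins, and slower growth.

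Levels are given as TPM, a relative unit of transcript abundance that allows for gene length, and the genes are assembled transcripts named by their best Swiss-Prot hit. Several assembled genes can share a name. How reads of near-identical genes were divided is unknown, and so is the number of reads behind a value. Of 44953 genes, 44600 reached 1 TPM in at least 2 of the 12 libraries and were tested with limma on log2(TPM + 1), a scale that understates the change of low genes. A gene is said to have risen or fallen where its Benjamini-Hochberg adjusted p, over all 44600 genes, lay under 0.05. In all value pairs below, replicate 1 comes before replicate 3. A second, descriptive rule, here the 2-fold rule, kept genes with both cold values on the same side of both controls and a mean difference of at least 1 on the log2 scale. This rule has no test behind it, since an exact permutation test of 2 against 2 cannot give a two-sided p below 0.333.

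Cold replicate 3 stood apart from the other 11 libraries. It had the highest median level, 8.59 TPM against 6.89 TPM in cold replicate 1 and 7.63 and 7.06 TPM in the controls, and the lowest sum, 873298 TPM. The cold pair correlated at r = 0.832 and the control pair at r = 0.81 across genes, which are not independent replicates. Both values were below the correlations of the day 4 and day 6 pairs (0.848 to 0.925). Within the cold pair, 7766 genes were at least 2-fold higher in replicate 3 and 3286 in replicate 1. For the sets with the most risers, refit counts below give the risers, in order, without cold replicate 1, cold replicate 3, control replicate 1 and control replicate 3.

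After 2 days in the cold, 658 genes rose (1.48% of those tested) and 128 fell (0.287%). Of the 786 genes called in either direction, 341 (43.4%) had a Swiss-Prot hit, and the groups named next come from these. Groups among the risers included transcription factors, calcium pumps and calcium-binding proteins, genes assigned to the plant circadian rhythm pathway, trehalose enzymes and polyubiquitin. Among the fallers were an auxin-conjugating enzyme, wall hydrolases, chaperones and the chromatin factor SPT16. The median difference over all tested genes was 0.00, that of the risers 2.72 and that of the fallers -2.03. At an unadjusted p under 0.05 there were 8222 genes (18.4%). All 786 called genes had non-overlapping groups and a difference of at least 2-fold. The calls rest on a spread estimated over all 12 libraries: fitted alone, the 4 day 2 libraries gave 0 calls in either direction, with 5447 genes at an unadjusted p under 0.05, and with the replicate number as a block the fit called 198 higher and 13 lower.

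If the 4 libraries were interchangeable, a gene would have both cold values on the same side of both controls with probability 0.333. Position counts therefore include genes separated without any effect of cold, and they do not tell which genes these are. By position alone, 10460 genes (23.5%) had both cold values above both controls and 9467 (21.2%) had both below. This order turned under other settings, with 9641 higher and 11016 lower after quantile normalization and 5743 and 7075 among genes with a mean of at least 5 TPM. With the 2-fold rule and no added normalization, 5881 genes (13.2%) were higher and 3139 (7.04%) lower. After quantile normalization the 2-fold counts lay closer together, with 5085 higher and 4475 lower. At the edge of the position rule, 1291 higher and 1796 lower genes had a gap between the groups under 0.1 on the log2 scale. Just outside it, 2074 and 2263 genes overlapped by less than that amount. The call counts depended on single libraries: without cold replicate 1 the fit called 15 genes higher and 0 lower, without cold replicate 3 it called 135 and 45, without control replicate 1 392 and 94, and without control replicate 3 81 and 9. Leaving out a library leaves 1 sample in its group, which is then assumed to vary like the other groups. Of the 786 genes, 11 were called in each of these 4 fits and 443 in none. With quantile normalization 679 genes rose and 274 fell, so that 71.2% of the called genes were risers in place of 83.7%.

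**Figure D1:**
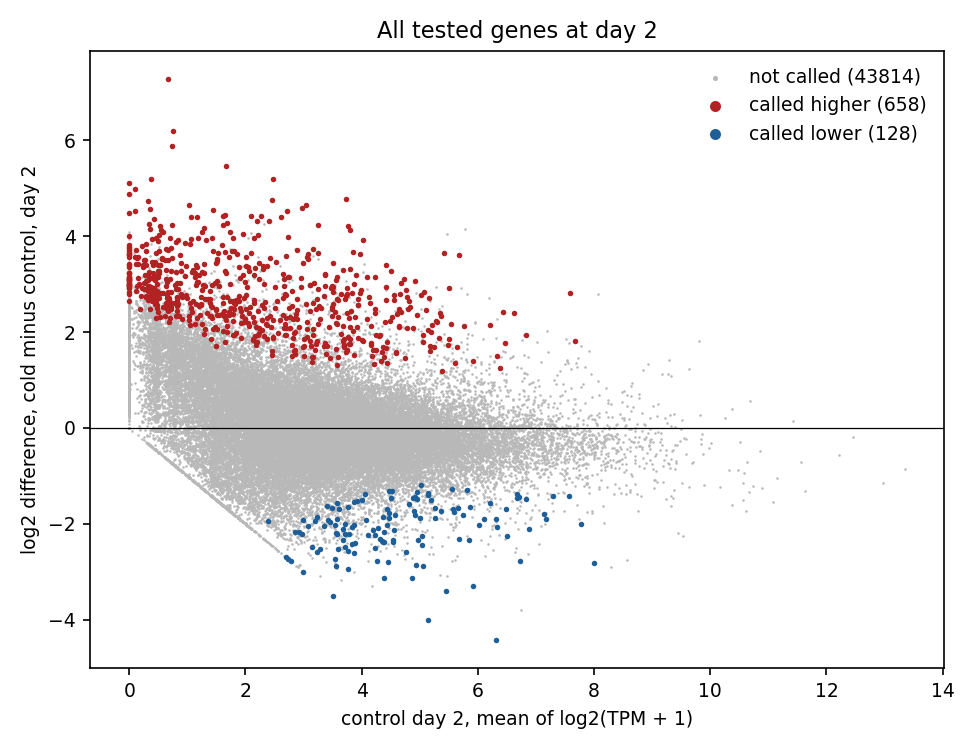
Each point is 1 of the 44600 tested genes, with its mean control level at day 2 on the horizontal axis and the cold minus control log2 difference on the vertical axis. The 658 genes called higher (red) reach further from 0 than the 128 called lower (blue), up to 7.28 against -4.42.

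Among genes with an informative Swiss-Prot hit and at least 5 TPM, several of the 10 widest upward gaps belonged to regulators. ZAT6, a C2H2 zinc finger factor of stress and phosphate responses in Arabidopsis, stood at 367 and 360.1 TPM in the cold libraries and 11.9 and 12.8 TPM in the controls (log2 difference 4.77, SE 0.62, adjusted p = 0.00709). The LURP-one-related 11 gene, of a family named for a defence gene, gave 122 and 175 TPM against 4.68 and 4.31 TPM (log2 difference 4.75, SE 0.41, adjusted p = 0.00203). Both genes were picked for their wide gaps, a choice that favours values far apart between groups and close within them. ERF1A, an ethylene-response factor, had 82.2 and 47.3 TPM in the cold libraries and 1.72 and 1.73 TPM in the controls (log2 difference 4.54, SE 0.45, adjusted p = 0.0028). DREB1A, the CBF factor that binds the cold-responsive element in Arabidopsis, was close to absent in the controls, with 17.5 and 31.9 TPM against 0.11 and 0.04 TPM (log2 difference 4.52, SE 0.53, adjusted p = 0.0048). IQM2, a calmodulin-binding IQ protein, rose as well (95.6 and 46.8 TPM against 1.9 and 2.41 TPM, log2 difference 4.43, SE 0.58, adjusted p = 0.00722).

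The other 5 of the 10 widest upward gaps were APK4, which makes activated sulfate, the calcium pump ACA13, and 3 plant U-box ubiquitin ligases. APK4 stood at 24.4 and 28.9 TPM in the cold libraries and 0.42 and 0.28 TPM in the controls. Of the ligases, PUB18 gave 27.8 and 33.3 TPM against 0.64 and 0.69 TPM (log2 difference 4.24, SE 0.71, adjusted p = 0.0182) and the PUB19 genes 27.5 and 19.7 TPM against 0.5 and 0.07 TPM and 30.4 and 39 TPM against 1.28 and 1.29 TPM. PUB18 and PUB19 are paralogs that act in abscisic acid and drought responses in Arabidopsis, and how reads were divided between them is unknown. Across all 70 tested U-box proteins, 4 rose and 0 fell, with a median difference of 0.25.

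In the other direction, GH3.1 fell furthest among the called genes, which conjugates auxin to amino acids, with 3.95 and 1.8 TPM in the cold libraries and 54.7 and 113 TPM in the controls (log2 difference -4.42, SE 0.76, adjusted p = 0.0194). LBD29, a LOB-domain factor of auxin-driven lateral root formation and callus formation in Arabidopsis, had 1.7 and 0.8 TPM against 29.8 and 39.8 TPM (log2 difference -4.01, SE 0.67, adjusted p = 0.0173). RFS2, annotated as a raffinose synthase, gave 8.49 and 2.98 TPM against 46 and 77.6 TPM (log2 difference -3.31, SE 0.59, adjusted p = 0.0232). In each of the 3 the control replicates differed less from each other than from the cold libraries, which a choice by gap favours. The dirigent protein DIR2, of a family in lignan formation, the factor BHLH18, the plastid gene psbB, the zinc finger gene ZFP1 and the ubiquitin ligase gene RHC1A also fell, by 2.94, 2.85, 2.78, 2.34 and 2.23 on the log2 scale. EBS, a histone mark reader, and a BTB/POZ protein (At2g04740) complete the 10 and did not pass the test (adjusted p = 0.0721 and 0.0861). EBS was nevertheless tight within groups, at 2.35 and 2.39 TPM against 12.3 and 12.5 TPM. Bulk RNA cannot tell fewer cells of a kind from less RNA per cell, here or in any result below.

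**Figure D2:**
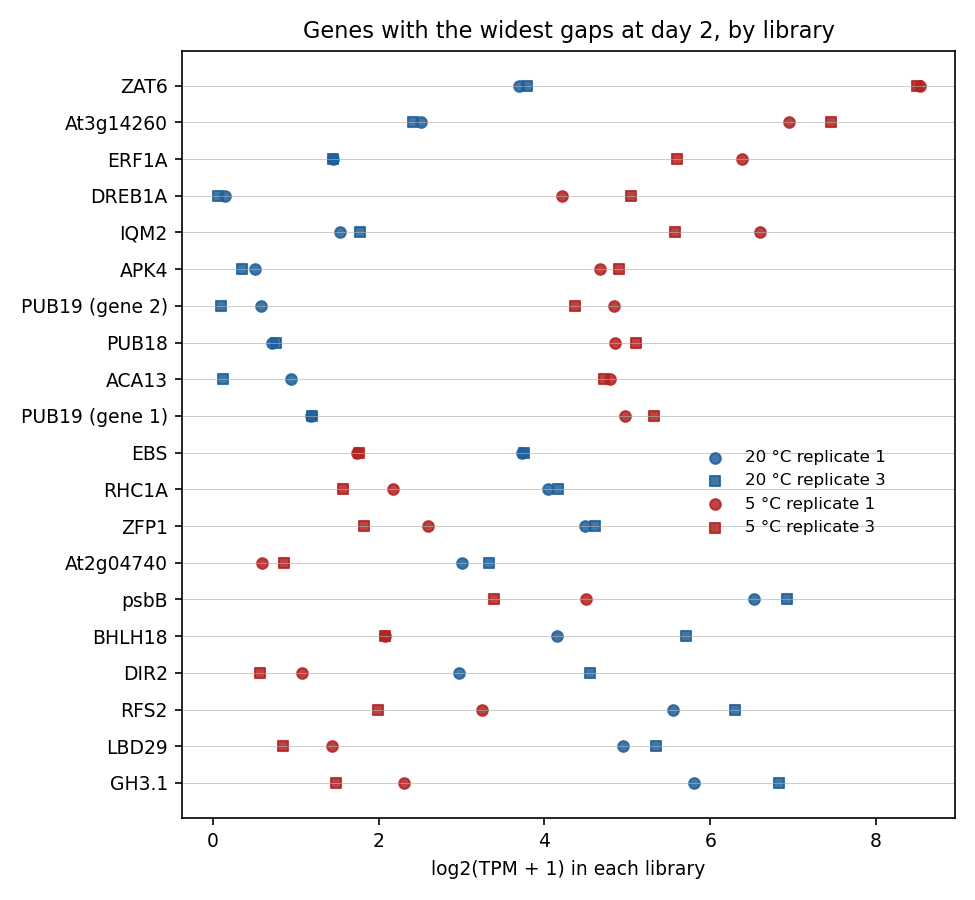
Points give log2(TPM + 1) in each of the 4 day 2 libraries for the 10 widest upward and 10 widest downward gaps among genes with an informative Swiss-Prot name (red 5 °C, blue 20 °C, circle replicate 1, square replicate 3). By the rule of choice, both red points lie on one side of both blue points in every row. The rows run from ZAT6 (367 and 360.1 TPM against 11.9 and 12.8 TPM) to GH3.1 (3.95 and 1.8 TPM against 54.7 and 112.6 TPM).

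Across the table's own gene sets, 890 GO terms and 119 KEGG pathways had at least 20 tested members. Genes with a GO term passed the 2-fold rule in 7.7% of cases upward and 5.87% downward, and 1.45% rose and 0.246% fell. For genes with a KEGG pathway the shares were 8.27% and 6.37%, with 1.55% and 0.32% called. These are the backgrounds against which the sets below are read. The counts use the same contrast that picked the genes, and no set was tested. Sets can share members, so similar counts in related sets are not separate findings.

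The set with the largest upward share was response to chitin, a GO term that gathers genes of the early defence and general stress response. There, 51 of 106 members passed the 2-fold rule upward and 10 downward, and 27 rose and 0 fell by the test, with a median difference over all members of 1.0. The share under the 2-fold rule was 48.1% upward. Without cold replicate 3 the 2-fold count was 54, and without cold replicate 1 47, when 13.6% and 20.1% of all tested genes passed upward in place of 13.2%. The refits called 0, 10, 11 and 4 risers. By protein family, 9 of 23 WRKY genes rose, 4 of 17 ethylene-response factors, 4 of 7 ZAT or AZF zinc fingers, and all 3 CCCH zinc finger genes and all 3 MPK3 genes. The members named next were listed after their values were seen.

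MPK3, a mitogen-activated protein kinase that is activated by cold and by pathogen signals in Arabidopsis, was represented in the set by 3 assembled genes. The most abundant stood at 199.9 and 153 TPM in the cold libraries and 28.9 and 20.3 TPM in the controls (log2 difference 2.80, SE 0.36, adjusted p = 0.00709). The others gave 83.2 and 68.5 TPM against 12 and 10.1 TPM and 41.1 and 37.9 TPM against 4.25 and 2.35 TPM. The identifiers of all 3 share the stem DN35317_c1, so they may not be separate genes, and their agreement is not independent. Of 4 MPK3 genes tested, 3 rose. Shared stems also join other genes named in this report. Examples are PUB18 and a PUB19 gene, ZAT10 and AZF2, and the ACA13 genes with values given. The same holds for 2 of the CCCH genes, 2 of the WRKY24 risers and the ATJ20 pair. These too may not be separate genes. Among the WRKY risers of the set WRKY48 had the highest mean level in the cold, with 206 and 249.5 TPM against 78.1 and 80.7 TPM (log2 difference 1.5, SE 0.28, adjusted p = 0.0284). WRKY22, known downstream of MPK3 in immune signalling, had 72.7 and 72 TPM against 8.52 and 7.56 TPM (log2 difference 3.02, SE 0.41, adjusted p = 0.00826). Of 4 WRKY24 genes, 3 rose, by 2.43, 2.41 and 2.20, on the log2 scale, and WRKY40, a repressor in abscisic acid and defence signalling, rose by 3.27. Of 7 WRKY6 genes, 2 rose, with 164 and 80.8 TPM against 10.3 and 17.8 TPM and 130.4 and 78.5 TPM against 10.2 and 15.1 TPM.

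ZAT10, a repressor induced by cold and drought in Arabidopsis, gave 93.7 and 30.3 TPM against 7.29 and 8.78 TPM (log2 difference 2.60, SE 0.47, adjusted p = 0.0236), with replicate 1 well above replicate 3 in the cold. ZAT11 had 43.5 and 22.5 TPM against 1 and 1.19 TPM (log2 difference 3.95, SE 0.46, adjusted p = 0.0048), and AZF2 196 and 67.2 TPM against 19.9 and 11 TPM (log2 difference 2.88, SE 0.64, adjusted p = 0.0496). The 3 CCCH genes, best hit At2g40140, rose by 3.65, 3.15 and 2.99. Among these, both genes with the smaller differences were higher in cold replicate 3 than in replicate 1 (62 and 175 TPM against 11.8 and 10.1 TPM for the second gene), and the second gene's later differences were -1.03 at day 4 and 0.52 at day 6. A STOP1 homolog, of a family in acid and aluminium tolerance, was uneven in both groups, at 473 and 132 TPM against 6.15 and 24.7 TPM (log2 difference 4.21, SE 0.82, adjusted p = 0.0298). MYB44, a regulator of stomatal and stress responses, was even across replicates (107 and 102 TPM against 22.1 and 14.3 TPM, log2 difference 2.49, SE 0.39, adjusted p = 0.0141). ERF13 went the other way without passing the test, at 4.21 and 2.75 TPM against 10.8 and 55.5 TPM (log2 difference -2.55, SE 0.65, adjusted p = 0.0739).

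Defence and wounding sets shared part of these members. In plant-pathogen interaction, 127 of 806 members passed the 2-fold rule upward and 50 downward, and 37 rose and 1 fell by the test, and in response to wounding 39 of 165 were higher and 8 lower, with 13 risers and 0 fallers. The refits called 2, 11, 20 and 7 risers in the pathogen pathway and 0, 8, 7 and 1 in the wounding set. HSPRO2, a resistance protein that binds the SnRK1 kinase in Arabidopsis, rose strongly (270.1 and 216 TPM against 21.6 and 7.54 TPM, log2 difference 4.12, SE 0.46, adjusted p = 0.00362). DREB2C, a factor of heat and osmotic stress that the table lists in the pathogen pathway, gave 50.5 and 36.3 TPM against 1.11 and 1.82 TPM (log2 difference 4.17, SE 0.46, adjusted p = 0.00362). Of 5 genes with a DREB name, 4 rose and none fell, and their summed level was 102 and 96 TPM in the cold libraries and 10.9 and 5.95 TPM in the controls. Chitinases are a separate set: of 20 members of chitinase activity, 0 rose and 0 fell, with a median of -0.54.

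**Figure D3:**
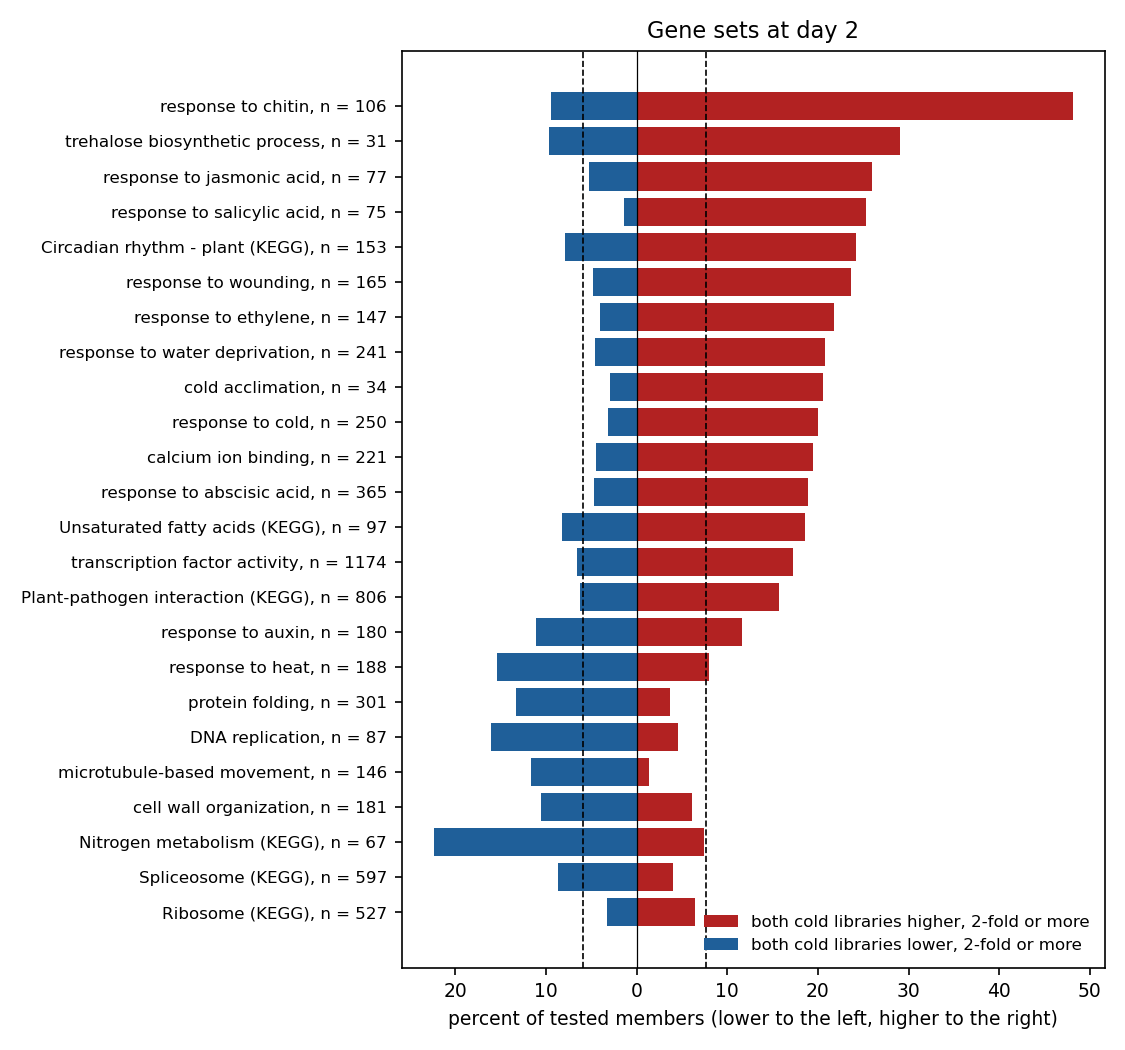
Bars give the percent of tested members of each set that passed the 2-fold rule, higher in the cold to the right (red) and lower to the left (blue), for sets chosen to span the described functions. Dashed lines mark the shares over all genes with a GO term, 7.7% upward and 5.87% downward, and response to chitin extends furthest to the right at 48.1%.

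Calcium genes formed a second group. In calcium ion binding, 43 of 221 members passed the 2-fold rule upward and 10 downward, and 9 rose and 1 fell by the test. The refits called 3, 6, 10 and 5 risers. PBP1, an EF-hand protein that binds the PINOID kinase, was among the tightest risers, with 123 and 123 TPM in the cold libraries and 10.7 and 10 TPM in the controls (log2 difference 3.45, SE 0.33, adjusted p = 0.00279). CML28, a calmodulin-like protein, gave 119.5 and 129 TPM against 11 and 12.7 TPM (log2 difference 3.29, SE 0.33, adjusted p = 0.0028). PBP1, CML28, DREB1A and the LURP-one-related 11 gene were the 4 named genes that stayed called with each of the 4 libraries left out in turn. CML27 stood at 73.1 and 99.1 TPM against 9.32 and 14 TPM (log2 difference 2.79, SE 0.40, adjusted p = 0.0103). Over 22 genes with a CML name, 5 rose and 0 fell, and the summed level was 999 and 866 TPM in the cold libraries and 514 and 516 TPM in the controls.

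Calcium-transporting ATPases move calcium out of the cytosol. Of 48 such genes, 8 rose and 0 fell, although the median over all of them was 0.04. The risers were ACA12, ACA13 and ACA1 genes. The most abundant ACA12 gene stood at 275 and 145 TPM in the cold libraries and 27.5 and 24.8 TPM in the controls (log2 difference 2.89, SE 0.39, adjusted p = 0.00743), a second at 177 and 126 TPM against 12.7 and 20.2 TPM, and another at 31.6 and 25.7 TPM against 1.11 and 1.01 TPM. ACA13 had 1 gene at 113 and 61.3 TPM against 9.21 and 11 TPM and another at 26.6 and 25.4 TPM against 0.93 and 0.09 TPM. ACA1 gave 21.1 and 12.5 TPM against 4.41 and 1.69 TPM (log2 difference 2.18, SE 0.43, adjusted p = 0.031). The first ACA12, the first ACA13 and the ACA1 gene were named after their values were seen. Of these pumps 4 sit, in the table, in the KEGG pathway oxidative phosphorylation, where 10 of 319 members rose, and 1, 3, 8 and 0 in the refits. Others of those risers were the transcription factors MYB44, MYB108 and RAX2, which are no part of the respiratory chain, and the mitochondrial genes MT-CYB (35.2 and 118 TPM against 15.4 and 13 TPM, log2 difference 2.11, SE 0.46, adjusted p = 0.0473) and ND1 (9.99 and 14.6 TPM against 2.48 and 2.38 TPM, log2 difference 1.93, SE 0.39, adjusted p = 0.0332), named after their values were seen.

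Protein phosphatases of the 2C class, several of which act against abscisic acid signalling, had 9 risers and 0 fallers among 114 genes, with a median of 0.14. The phosphatase with best hit PP2C27 gave 12.7 and 15.2 TPM against 1.5 and 0.35 TPM (log2 difference 3.02, SE 0.50, adjusted p = 0.0173). Kinases as a whole stayed near the background: in protein serine/threonine kinase activity 10 of 954 rose and 1 fell. Polyubiquitin, the precursor of the tag for protein breakdown, was higher across most of its copies. Of 23 polyubiquitin genes, 15 passed the 2-fold rule upward and 0 downward, and 5 rose. Their summed level was 12462 and 8660.2 TPM in the cold libraries and 4496 and 4708 TPM in the controls. Examples chosen after their values were seen were 842 and 602 TPM against 230.1 and 179 TPM (log2 difference 1.81, SE 0.37, adjusted p = 0.0346) and 480.2 and 396 TPM against 110 and 115 TPM (log2 difference 1.95, SE 0.38, adjusted p = 0.0316). These copies are near-identical by nature, so the division of reads among them is uncertain.

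The sets named for cold and drought held fewer risers than the chitin set. In response to cold, 50 of 250 members passed the 2-fold rule upward and 8 downward, and 20 rose and 2 fell by the test, and in response to water deprivation 14 of 241 rose and 1 fell. The refits called 1, 10, 13 and 5 risers in the cold set and 1, 5, 9 and 1 in the water deprivation set. The medians over all members were 0.08 and 0.06. Beside DREB1A, MIP1A, a small B-box protein, rose (36.7 and 46.8 TPM against 1.81 and 2.26 TPM, log2 difference 3.81, SE 0.42, adjusted p = 0.00362). TIL, a temperature-induced lipocalin of the plasma membrane, gave 71.2 and 110.5 TPM against 8.41 and 17.8 TPM (log2 difference 2.75, SE 0.54, adjusted p = 0.0309). BAM3, the plastid beta-amylase that releases maltose from starch, had 30.5 and 38.9 TPM against 3.8 and 2.18 TPM (log2 difference 3.18, SE 0.38, adjusted p = 0.00573). A glycine-rich RNA-binding protein gene fell (35.7 and 39.4 TPM against 94.7 and 112 TPM, log2 difference -1.44, SE 0.31, adjusted p = 0.0423), but summed over all genes with its Swiss-Prot hit the difference was 0.095. The stromal HSP70 fell too (12.7 and 11.9 TPM against 30 and 39.2 TPM, log2 difference -1.41, SE 0.28, adjusted p = 0.0316).

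Of 3 genes for protective proteins described here, 1 rose. LEA5, a late embryogenesis abundant protein, gave 329 and 99.7 TPM against 40.5 and 36.1 TPM (log2 difference 2.22, SE 0.49, adjusted p = 0.0481), with cold replicate 1 well above replicate 3. The dehydrin ERD14 stood at 684 and 761 TPM in the cold libraries and 566 and 84.6 TPM in the controls (log2 difference 1.71, SE 0.67, adjusted p = 0.207), so that control replicate 1 was close to the cold libraries and replicate 3 was not. RCI2B, a small hydrophobic membrane protein induced by cold in Arabidopsis, gave 514 and 401 TPM against 268 and 138 TPM (log2 difference 1.23, SE 0.57, adjusted p = 0.274). ERD14 and RCI2B did not pass the test at day 2, while the later differences were 2.46 at day 4 and 3.25 at day 6 for ERD14 and 2.70 at day 4 and 1.94 at day 6 for RCI2B. All 3 were named after their values were seen. In cold acclimation as a set, 1 of 34 members rose, DREB1A, and 0 fell. KAS2, a fatty acid synthase subunit listed there, gave 16.9 and 11.2 TPM against 4.65 and 3.91 TPM, and the cold shock protein gene CSP2 8.38 and 7.73 TPM against 19.2 and 13.6 TPM. Neither of these passed the test (adjusted p = 0.119 and 0.235).

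The KEGG pathway with the largest upward share was the plant circadian rhythm: 37 of 153 members passed the 2-fold rule upward and 12 downward, and 13 rose and 0 fell by the test. The refits called 0, 2, 8 and 1 risers. The GO set circadian rhythm was closer to balance, with 11 of 87 members higher, 8 lower, 2 risers and 1 faller. LHY, a morning-phased MYB factor of the central clock, stood at 22.4 and 74.2 TPM in the cold libraries and 2.4 and 3.8 TPM in the controls (log2 difference 3.38, SE 0.60, adjusted p = 0.0232), higher in cold replicate 3 than in replicate 1. COP1, the ubiquitin ligase that represses light responses, was close to absent in the controls in 1 gene (13.1 and 11.3 TPM against 0.15 and 0.07 TPM, log2 difference 3.57, SE 0.53, adjusted p = 0.0113), and 4 of 8 COP1 genes rose. Its partner SPA4 gave 26.6 and 22.7 TPM against 2.65 and 3.24 TPM (log2 difference 2.70, SE 0.32, adjusted p = 0.0048). Of 6 CDF2 genes, Dof factors that delay flowering, 4 rose, among them 2 by 2.34 and 2.17. Other members were lower in the cold without passing the test. APRR7, a pseudo-response regulator that represses LHY, stood at 6.59 and 11.3 TPM against 37 and 16.7 TPM (log2 difference -1.42, SE 0.43, adjusted p = 0.119), and COL5 at 27.6 and 22.1 TPM against 177 and 54.8 TPM (log2 difference -1.96, SE 0.66, adjusted p = 0.149). SPA4, CDF2 and APRR7 were named after their values were seen, and the time of day of sampling is not given in the labels.

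Hormone sets differed from one another. Response to jasmonic acid had 20 of 77 members higher and 4 lower under the 2-fold rule, with 7 risers, and response to salicylic acid 19 of 75 higher and 1 lower, with 7 risers. For ethylene the test called 13 of 147 up, for abscisic acid 16 of 365, and for gibberellin 6 of 62. The refits called 0, 3, 5 and 0 risers for jasmonic acid, 0, 2, 3 and 1 for salicylic acid, 0, 3, 8 and 0 for ethylene, 0, 3, 12 and 0 for abscisic acid and 0, 2, 4 and 0 for gibberellin. Response to auxin was balanced, with 21 higher and 20 lower of 180, and 3 risers and 1 faller. Response to cytokinin had 1 riser and 1 faller of 135.

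The jasmonate branch included TIFY10A, a JAZ repressor, at 51.4 and 22.5 TPM in the cold libraries and 2.09 and 1.4 TPM in the controls (log2 difference 3.69, SE 0.55, adjusted p = 0.0113). Of 9 genes with a TIFY name, 1 rose and 0 fell, with a median difference of -0.07 and differences from -0.82 to 3.69. The 13-lipoxygenase LOX3.1, which makes the jasmonate precursor, had 46.7 and 35.3 TPM against 13.4 and 11.6 TPM (log2 difference 1.63, SE 0.30, adjusted p = 0.0263) and a second gene at 26.6 and 18.8 TPM against 7.2 and 3.28 TPM (log2 difference 1.98, SE 0.44, adjusted p = 0.0491). Of 9 lipoxygenase genes, 2 rose and 0 fell, and their summed level was 379 and 251 TPM in the cold libraries and 78.3 and 100.3 TPM in the controls. In gibberellin signalling the receptor GID1B rose (27 and 19.8 TPM against 4.18 and 2.42 TPM, log2 difference 2.52, SE 0.54, adjusted p = 0.0415) and SCL3, a GRAS protein that promotes the gibberellin response in Arabidopsis, fell (3.48 and 3.42 TPM against 18.5 and 13.5 TPM, log2 difference -1.92, SE 0.34, adjusted p = 0.0222). SCL14, a GRAS protein of detoxification, rose far more (277 and 218 TPM against 12.4 and 18.8 TPM, log2 difference 3.92, SE 0.56, adjusted p = 0.00991). For auxin, beside GH3.1, the 35 genes named auxin-induced or auxin-responsive protein had 5 higher and 9 lower and none called. AUX22D, an Aux/IAA repressor, stood at 2.23 and 0.42 TPM against 4.61 and 25.4 TPM (log2 difference -2.51, SE 0.85, adjusted p = 0.149), with control replicate 3 far above replicate 1. It was named after its values were seen.

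Trehalose metabolism had a high share of risers for a small set. In trehalose biosynthetic process, 9 of 31 members passed the 2-fold rule upward and 3 downward, and 6 rose and 0 fell by the test. The refits called 0, 2, 6 and 0 risers. Trehalose-phosphate is a sugar signal made by synthases (TPS) and removed by phosphatases (TPP). TPPB gave 28.3 and 16.8 TPM against 3.26 and 2.01 TPM (log2 difference 2.67, SE 0.43, adjusted p = 0.015), and TPPJ 53.9 and 56.5 TPM against 13 and 5.64 TPM (log2 difference 2.54, SE 0.41, adjusted p = 0.015). The TPS11 genes, of the class without known synthase activity, stood at 158 and 134 TPM against 48.5 and 31.4 TPM and 149.9 and 178 TPM against 57.9 and 33.8 TPM (adjusted p = 0.025 and 0.0311), and were named after their values were seen. TPS1, the active synthase of Arabidopsis, was lower at 2.83 and 2.07 TPM against 9.09 and 7.09 TPM and did not pass the test (adjusted p = 0.123).

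Other carbohydrate pathways were mixed. In starch and sucrose metabolism 10 of 576 members rose and 4 fell, with 56 higher and 50 lower under the 2-fold rule. A subunit of the ADP-glucose-forming enzyme of starch synthesis (At2g21590) fell (0.79 and 3.36 TPM against 15 and 12.7 TPM, log2 difference -2.40, SE 0.47, adjusted p = 0.0316). In galactose metabolism 19 of 201 were higher and 24 lower, with 1 riser and 1 faller. GOLS2, which makes the galactinol used for raffinose, stood at 148 and 34.6 TPM against 6.05 and 17.9 TPM and missed the threshold (log2 difference 2.66, SE 0.65, adjusted p = 0.0663), while RFS2 fell. Glycolysis had 7 risers of 272, and the citrate cycle 0 risers and 1 faller of 124.

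Fatty acid desaturation split among gene copies. FAD2 puts the second double bond into oleate, and it and other omega-6 desaturases had 44 assembled genes, of which 14 were higher and 5 lower under the 2-fold rule, with 1 riser. Their summed level was 6148 and 3220.5 TPM in the cold libraries and 3838 and 8058 TPM in the controls, so the groups overlapped. The riser stood at 34.1 and 18.4 TPM against 0.37 and 3.37 TPM (log2 difference 3.42, SE 0.61, adjusted p = 0.0232), and a far more abundant copy at 564 and 395 TPM against 1091 and 2268 TPM (log2 difference -1.73, SE 0.49, adjusted p = 0.095). When TPM were summed over the genes with the riser's Swiss-Prot hit, the difference had the opposite sign (-0.52, adjusted p = 0.588). Another copy gave 524 and 288 TPM against 23.7 and 126 TPM (log2 difference 2.80, SE 0.82, adjusted p = 0.107), and these 3 were named after their values were seen. The sphingolipid desaturase gene sld1 rose (203 and 238 TPM against 20.9 and 47 TPM, log2 difference 2.77, SE 0.39, adjusted p = 0.0096). NMT3, of phosphocholine synthesis, fell (6.23 and 9.15 TPM against 30.3 and 28.3 TPM, log2 difference -1.82, SE 0.37, adjusted p = 0.0347).

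Ginsenosides are triterpene saponins, and CYP71D313 is a cytochrome P450 described from ginseng itself. It had 9 genes, 1 of which rose and none of which fell. The riser stood at 434 and 86.8 TPM in the cold libraries and 8.98 and 23.8 TPM in the controls (log2 difference 3.63, SE 0.81, adjusted p = 0.0496), far higher in cold replicate 1 than in replicate 3. Another copy, named after its values were seen, gave 161 and 30.8 TPM against 2.09 and 4.93 TPM (log2 difference 4.07, SE 0.94, adjusted p = 0.0569). The summed level of the 9 genes was 1289 and 448 TPM in the cold libraries and 81.7 and 308 TPM in the controls. Of 10 genes named for squalene enzymes, beta-amyrin synthase, dammarenediol synthase or protopanaxadiol enzymes, none was called, and their differences ran from -0.72 to 1.0.

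DNA replication genes were more often lower than higher under the 2-fold rule, with few calls. Sets of cell division lay near the downward background of that rule and below its upward background. In the GO set DNA replication, 4 of 87 members passed the 2-fold rule upward and 14 downward, and 0 rose and 3 fell by the test, and all 3 fallers were SPT16 genes, a subunit of the FACT histone chaperone that acts in replication and transcription. They stood at 2.83 and 6.42 TPM against 22.1 and 19.4 TPM (log2 difference -2.03, SE 0.39, adjusted p = 0.0298), 2.04 and 3.08 TPM against 10.4 and 10 TPM (log2 difference -1.67, SE 0.36, adjusted p = 0.0439) and 4.29 and 5.14 TPM against 18 and 12.6 TPM (log2 difference -1.5, SE 0.33, adjusted p = 0.0486), the last of these named after its values were seen. Cell division had 10 higher and 14 lower of 231 (4.33% and 6.06%), with 1 riser and 1 faller. Cell cycle had 3 and 9 of 131 (2.29% and 6.87%), with none called. By position, 32 cell division genes had both cold values above both controls and 79 had both below. For cell cycle these counts were 14 and 46, where 23.5% and 21.2% of all tested genes did so. The medians of the 2 sets were -0.23 and -0.30, against -0.08 for all genes with a GO term. The families that follow were chosen after values were seen. The MCM helicase subunits, which license replication origins, had 18 genes with 6 lower and none higher under the 2-fold rule, none called, and differences from -1.52 to -0.15. Their summed level was 409.6 and 451 TPM in the cold libraries and 709 and 863 TPM in the controls. MCM4 gave 13.1 and 15.6 TPM against 28.9 and 40.4 TPM (log2 difference -1.20, SE 0.32, adjusted p = 0.0839), which did not pass the test.

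Of 136 kinesin genes, 2 were higher and 15 lower under the 2-fold rule and none was called, with a median of -0.43. NACK1, a kinesin needed for cell plate growth in tobacco, stood at 6.21 and 5.05 TPM against 16.8 and 16.9 TPM (log2 difference -1.43, SE 0.37, adjusted p = 0.0775). The summed kinesin level was 1862 and 2339 TPM in the cold libraries and 3200 and 2126 TPM in the controls, where cold replicate 3 overlapped with a control. CDC20-2, a cofactor of the anaphase-promoting complex, fell (39.6 and 36.3 TPM against 94 and 108 TPM, log2 difference -1.39, SE 0.27, adjusted p = 0.0298). The histone demethylase LDL1 fell too (4.03 and 2.5 TPM against 19 and 15.8 TPM, log2 difference -2.13, SE 0.46, adjusted p = 0.0456). CYCD3-1, a cyclin of cell cycle entry, was low in 3 of the 4 libraries and high in 1 control (4.59 and 4.82 TPM against 8.06 and 52.3 TPM, log2 difference -1.95, SE 0.64, adjusted p = 0.141).

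Chaperone genes were more often lower than higher under the 2-fold rule, with as many risers as fallers among the folding genes. In protein folding, 11 of 301 members passed the 2-fold rule upward and 40 downward, and 3 rose and 3 fell by the test, against a median of -0.27 over all members, and in response to heat 29 of 188 were lower and 15 higher, with 1 faller and 6 risers. Without cold replicate 3, 48 folding genes were lower under the 2-fold rule, and without cold replicate 1 39, when 12.5% and 8.51% of all tested genes were lower in place of 7.04%. Neither of these refits called any folding gene. Genes for heat shock proteins of the 70, 80 and 90 kDa classes and luminal-binding proteins, 70 in all, had 25 lower and 3 higher, 3 fallers and no riser. Their summed level was 4843 and 3579 TPM in the cold libraries and 7366 and 10362 TPM in the controls. HOP, the cochaperone that joins HSP70 and HSP90, fell (24.8 and 23.2 TPM against 76.3 and 69.6 TPM, log2 difference -1.56, SE 0.35, adjusted p = 0.0473), as did a calnexin homolog of the endoplasmic reticulum (57.6 and 57.2 TPM against 134 and 179.5 TPM, log2 difference -1.42, SE 0.31, adjusted p = 0.0478). The abundant HSC80, an HSP90 named after its values were seen, did not pass the test at 904 and 608 TPM against 1548 and 3040 TPM (log2 difference -1.55, SE 0.52, adjusted p = 0.149). A pair of genes of the plastid cochaperone ATJ20 moved apart, 1 rising by 2.13 (62.3 and 96 TPM against 15.8 and 17.9 TPM) and 1 falling by 2.49 (1.65 and 1.06 TPM against 8.03 and 18 TPM) on the log2 scale. Summed over all genes with the latter's hit, the level was higher in the cold by 1.18, which did not pass the test (adjusted p = 0.056).

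Sets of RNA and ribosomes held few calls. Spliceosome had 24 of 597 higher and 52 lower under the 2-fold rule, with 0 risers and 4 fallers. SKIP, a splicing factor with a role in the clock in Arabidopsis, fell (19.6 and 25.1 TPM against 52.3 and 59 TPM, log2 difference -1.28, SE 0.28, adjusted p = 0.0427). Of 315 ribosomal protein genes none was called, and the median was -0.14. The KEGG set ribosome held 7 risers, of which 5 were polyubiquitin genes and 2 the ubiquitin-ribosomal fusion genes UBICEP52-7 (66.9 and 45.7 TPM against 1.46 and 3.48 TPM and 102 and 107 TPM against 2.54 and 11.6 TPM). The initiation factor gene TIF3A1 missed the threshold at 63.6 and 81.2 TPM against 210.2 and 295 TPM (log2 difference -1.78, SE 0.40, adjusted p = 0.0501).

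The fallers in the wall set were cellulose-cleaving enzymes. In cell wall organization 2 of 181 rose and 3 fell, the fallers being 3 genes of Endoglucanase 6. They stood at 49.6 and 31.2 TPM against 137 and 142 TPM (log2 difference -1.80, SE 0.31, adjusted p = 0.0192), 15.4 and 11.5 TPM against 51.7 and 42.8 TPM (log2 difference -1.75, SE 0.30, adjusted p = 0.0185) and 24.4 and 13.6 TPM against 65.4 and 96.7 TPM (log2 difference -2.07, SE 0.44, adjusted p = 0.0415), the last of these named after its values were seen. All 26 endoglucanase genes together gave 824 and 568 TPM in the cold libraries and 1163 and 982 TPM in the controls. The GO set with the largest downward share was beta-galactosidase activity, with 11 of 35 lower, 1 higher and none called. The 37 genes named beta-galactosidase summed to 388 and 601 TPM in the cold libraries and 743 and 499 TPM in the controls, so the groups overlapped. EXL2, an EXORDIUM-like wall protein, rose (250.1 and 226 TPM against 40.7 and 25.9 TPM, log2 difference 2.83, SE 0.32, adjusted p = 0.00362).

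The KEGG pathway with the largest downward share was nitrogen metabolism, where 5 of 67 members passed the 2-fold rule upward and 15 downward, and 2 rose and 0 fell by the test. Without cold replicate 3 the downward count was 13, and without cold replicate 1 18, against the same 12.5% and 8.51% of all genes. GLT1, the NADH-dependent glutamate synthase, gave 9.12 and 10 TPM against 26.9 and 45.7 TPM (log2 difference -1.77, SE 0.44, adjusted p = 0.0687) and, in a more abundant gene, 57.8 and 52.8 TPM against 122 and 189 TPM (log2 difference -1.44, SE 0.38, adjusted p = 0.0799). NIR1, nitrite reductase, stood at 88 and 52.9 TPM against 177 and 246 TPM (log2 difference -1.60, SE 0.37, adjusted p = 0.0564), and GLN2, plastid glutamine synthetase, at 31.3 and 34.4 TPM against 54.1 and 98.1 TPM (log2 difference -1.13, SE 0.31, adjusted p = 0.0851). These 4 genes were chosen with their gaps or values known, so both cold values lying below both controls is no added evidence. None of the 4 passed the test. The last 3 genes were named after their values were seen. The 2 risers were sld1, which is a desaturase, and another glutamate synthase gene (14.8 and 32.6 TPM against 3.22 and 2.22 TPM, log2 difference 2.64, SE 0.56, adjusted p = 0.0401). Of 22 genes named glutamate synthase, 2 were higher and 6 lower under the 2-fold rule. Their summed level was 1004 and 1057 TPM in the cold libraries and 1038 and 1243 TPM in the controls, so the groups overlapped.

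Several other sets had large upward shares. Regulation of defense response had 15 of 43 members higher and 2 lower, with 4 risers that included TIFY10A and WRKY40. In cellular protein modification process 15 of 43 were higher, and all 5 risers were polyubiquitin genes. The GO term for oxygen-dependent desaturases had 17 of 47 higher and 5 lower, with the FAD2 gene above as its 1 riser. Trehalose-phosphatase activity had 9 of 27 higher and 6 risers, the same counts as the trehalose set above, with which it may share members. Among KEGG pathways, porphyrin and chlorophyll metabolism had 23 of 111 higher, and its 5 risers held the MYB factors MYB44, MYB108 and RAX2, which do not make porphyrins. Unsaturated fatty acid synthesis had 18 of 97 higher, the folate one-carbon pool 8 of 44, and diterpenoid biosynthesis 7 of 42, with GA2OX2 genes, which inactivate gibberellin, as its 2 risers.

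Downward, the nucleolar ribonuclease P complex had 8 of 26 members lower and none higher, ribonuclease P activity 8 of 32 lower, and nucleobase-containing compound metabolism 7 of 27. The 1 faller of the first set was FDM5, a factor of RNA-directed DNA methylation. Both ribonuclease P sets had 8 lower members and 1 faller, so they may hold largely the same genes. In the complex, 14 of the 26 members had no gene name. In nuclear euchromatin 6 of 21 were lower, and its 3 fallers were the SPT16 genes. Among KEGG pathways, glucosinolate biosynthesis had 8 of 41 lower, ganglio-series glycosphingolipids 9 of 53 and folate biosynthesis 6 of 39, with none called in these 3. Zeatin biosynthesis had 6 of 32 lower, and its 2 fallers were glucosyltransferases with best hit UGT709C2, an iridoid enzyme, 1 of them at 3.82 and 4.96 TPM against 25.4 and 20.1 TPM (log2 difference -2.14, SE 0.29, adjusted p = 0.00743).

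Genes without any annotation made up 16142 of the 44600 and were short, with a median length of 312 bases. They passed the 2-fold rule upward in 21.4% of cases and downward in 8.68%, against 7.55% and 5.83% for genes with a Swiss-Prot hit. Their median difference was 0.24 at day 2, -0.21 at day 4 and -0.05 at day 6. The upward share exceeded that of Swiss-Prot genes in each length class, 24.6% against 12% at 200 to under 300 bases and 17.5% against 6.91% at 1000 bases or more. Cold replicate 3 contributed more to it than replicate 1: 24.2% of these genes were at least 2-fold above both controls in replicate 3 and 15.2% in replicate 1. Its part in the difference was not tested beyond these values.

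**Figure D4:**
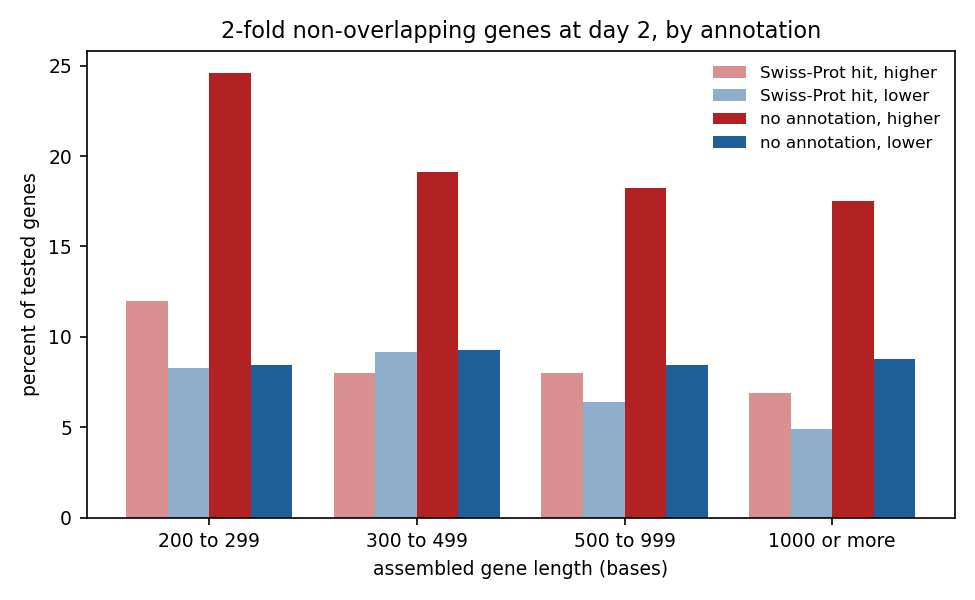
Bars give the percent of tested genes that passed the 2-fold rule, by length of the assembled gene, for genes with a Swiss-Prot hit (pale) and without annotation (dark), higher in red and lower in blue. Upward shares of genes without annotation run from 17.5% to 24.6%, above those with a hit in all 4 length classes.

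Days 4 and 6 used other libraries with their own controls, so the same genes could be looked up there. The same fit gave each gene the same SE at all 3 days, so a gene called at day 2 partly for a small spread was favoured for a call at the later days as well. Of the 5881 genes higher under the 2-fold rule at day 2, 77.1% were higher at day 4 and 67.8% at day 6, against 43.2% and 47.7% of all tested genes. Of the 3139 lower genes, 90% were lower at day 4 and 82.3% at day 6, against 56.3% and 51.6% of all. The 658 risers had a median difference of 1.55 at day 4 and 0.66 at day 6. At day 4, 288 of them rose again by the test, where 4.07% of all tested genes rose, and at day 6 25, where 0.318% of all rose. By set, the chitin genes had medians of 1.0, 0.75 and 0.28 at days 2, 4 and 6, and unsaturated fatty acid synthesis 0.12, 0.06 and -0.58. FAD2 and other omega-6 desaturase genes had medians of 0.52, 0.59 and -1.60. The risers and the chitin set stand out by their day 2 values, so smaller differences at later days can follow from that choice alone. This was not tested.

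**Figure D5:**
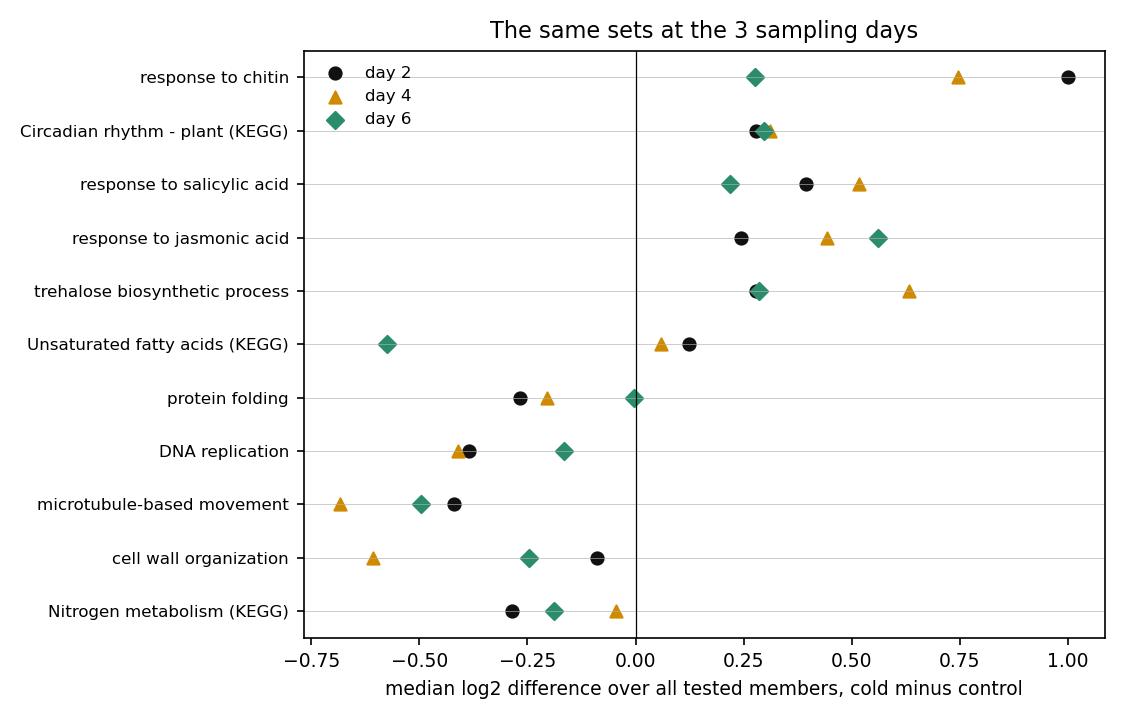
Symbols give the median log2 difference over all tested members of each set at day 2 (black circle), day 4 (orange triangle) and day 6 (green diamond), each against that day's own controls. Response to chitin is highest at day 2 with 1.0, and unsaturated fatty acid synthesis falls below 0 at day 6 with -0.58. No difference between days was tested for sets. Response to chitin had the largest upward share at day 2, so smaller later medians can follow from that choice alone.

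Whether a gene behaved differently at day 2 was tested as the day 2 difference minus the mean of the day 4 and day 6 differences. The test called 8 genes, 5 higher (0.0112%) and 3 lower (0.00673%), and refits without 1 of the day 2 libraries called 0 to 3, with 0 when either cold library was left out. PILS3, an auxin carrier of the endoplasmic reticulum, had 13.2 and 14.8 TPM against 18.9 and 13.6 TPM at day 2, a difference of -0.18, and differences of 2.31 at day 4 and 2.42 at day 6 (contrast -2.54, SE 0.33, adjusted p = 0.0482). The phosphatase gene with best hit At3g17090 (PP2C42) gave -0.23 at day 2 and 3.59 at day 4 and 3.08 at day 6 (contrast -3.56, SE 0.38, adjusted p = 0.0167). Both were flat at day 2 and higher later. CML27 and CBSX5 ran the other way, from 2.79 and 1.71 at day 2 to -0.85 and -1.79 at day 6, and missed the threshold (adjusted p = 0.122 and 0.057). For GLT1, with -1.44 at day 2 and 0.47 at day 4 and 0.53 at day 6, the contrast was -1.94 (SE 0.46, adjusted p = 0.277).

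The label embryogenic callus was compared with a list of names from somatic embryo formation. The list matched 12 genes, named AIL5, AIL6, BBM2, SERK1, SERK2, WOX2, WOX8 and WOX9. Listed names such as LEC1, L1L, ABI3, AGL15, PLT2 and WOX11 were not among the matches, and no tested gene carried the name WUS, LEC2 or FUS3. The summed level of the 12 genes was 656.5 and 697 TPM in the cold libraries and 1011 and 524.9 TPM in the controls. These sums overlapped between groups, and none of the genes was called. A sum does not tell which genes carried it, so it does not settle the label. Of the marker lists of other tissues, xylem genes summed to between 101 and 219.8 TPM, epidermis genes to between 199.6 and 329.5, mesophyll genes to between 73.3 and 107.3, seed storage genes to between 92.3 and 214.7, and root genes to between 53.2 and 364.9. No gene of these 5 lists was called. In all 5 lists the cold and control sums overlapped.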

How the data were processed

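The authors deposited 1 table of TPM values, with a Trinity-style gene identifier, a length, a best Swiss-Prot hit, GO terms and KEGG pathways for each gene. Per the submitters' processing notes, cutadapt, FastQC, Salmon and edgeR were used. Tool roles and versions were not given in the sources used here, and read counts are unknown, so no counting error is given. TPM divides by gene length and by library total, so a few abundant genes lower all others in a library.

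Groups came from the sample labels. Values were taken as log2(TPM + 1) for genes that reached 1 TPM in 2 or more of the 12 libraries. A limma 3.58.1 fit (R 4.3.3, trended variance) over all 6 groups gave cold minus control differences at each day and the day 2 difference minus the mean of the later ones, with Benjamini-Hochberg adjustment over all tested genes. The code was tested on simulated data. Genes, sets and lists were chosen with earlier results of these data known. The rule named the 10 widest gaps each way among genes with an informative hit and at least 5 TPM, the 2 widest each way per set, the 5 lowest p-values of the day contrast, and the 5 GO and 5 KEGG sets of at least 20 genes with the largest shares. Exceptions are stated where they occur. Families were grouped by the words of the Swiss-Prot name after values were seen. Alternatives changed the pseudocount, filter, scaling, variance model, libraries, replicate block and gene unit.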

Additional observations from a re-analysis of the deposited data

Results flagged for a closer look

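For 8 genes the cold difference at day 2 departed from the mean of the day 4 and day 6 differences by limma's test of that contrast (adjusted p under 0.05). PILS3 had a contrast of -2.54 and At3g17090, a protein phosphatase 2C gene, one of -3.56, both being higher in the cold at the later days and not at day 2. Of 6 genes without a Swiss-Prot hit, DN18159_c5_g3 was lower at day 2 relative to later, with a contrast of -5.23. The other 5 were higher at day 2 relative to later, with contrasts of 3.4 (DN14816_c0_g4), 3.67 (DN33626_c0_g3), 4.21 (DN32819_c0_g7), 5.2 (DN23721_c1_g3) and 6.51 (DN18933_c3_g1). Groups of 2 libraries were too small for a check of single outlying values.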

How the results depend on the processing

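The 4 refits that each left out 1 day 2 library gave 15 to 392 genes higher, 0 to 94 lower and 0 to 3 for the day contrast. By position they gave 14198 to 18407 higher and 13415 to 16857 lower, and under the 2-fold rule 6075 to 8965 and 3796 to 5581. With 1 library fewer to clear, the position counts of these refits could only rise. A pseudocount of 0.1 gave 374 higher and 79 lower calls and 4 for the contrast. A pseudocount of 5 gave 15 for the contrast, and 2249 and 918 under the 2-fold rule. A mean of at least 5 TPM gave 429 higher calls, 5743 higher and 7075 lower by position, and 2287 and 1794 under the 2-fold rule, over fewer genes. The 4 day 2 libraries alone gave 0 and 0 limma calls, with 5447 genes at an unadjusted p under 0.05. Without the variance trend there were 1079 higher calls and 2 for the contrast, and with quantile normalization 274 lower calls, and 9641 higher and 11016 lower genes by position. Summing TPM by Swiss-Prot hit gave 167 and 47 calls, 1850 and 2668 by position, and 672 and 433 under the 2-fold rule. That sum also turned the sign of FAD2 DN34643_c0_g5 (-0.523), the glycine-rich RNA-binding protein DN24783_c1_g1 (0.095) and ATJ20 DN18589_c1_g4 (1.184). Apart from the rise of the position counts in the refits, the cause of these shifts was not tested.

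A replicate block by number gave 198 higher and 13 lower calls and 2 for the contrast. Same-numbered cold and control libraries did not deviate together (r = -0.188), so the numbers are not shown to pair the libraries. Crossed numbers, chosen after seeing the data, gave 553, 96 and 0.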
